A study of Homo sapiens with 4 samples.

Results

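The EGFR family is described here through 10 genes, chosen by name from the 29209 genes listed for each library: the receptors EGFR, ERBB2 and ERBB3, the ligands AREG, EREG, HBEGF, TGFA, BTC and EPGN, and the receptor inhibitor ERRFI1. Each of the 10 matched exactly 1 row, and all 10 passed the filter on low counts, which left 15113 genes. The cells were HaCaT, an immortalised human keratinocyte line. In the TCN1_OE group, lentivirus had been used to make a stable line overexpressing TCN1, which encodes the secreted vitamin B12-binding protein transcobalamin 1, and the NC group was the negative control line. Each group was 1 line with 2 libraries of polyA RNA, and all cells were grown in DMEM with fetal bovine serum. The labels do not say what the control virus carried, or whether replicates were grown apart. The p-values below therefore reflect library-to-library spread that could be purely technical.

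EGFR and its relatives are receptor tyrosine kinases that pair with each other when a ligand binds and then signal through the RAS-ERK and PI3K-AKT cascades. AREG, EREG, HBEGF, TGFA, BTC and EPGN are made as membrane-anchored precursors, and metalloproteases such as ADAM17 cut them free to act on the same cell or its neighbours. Keratinocytes use this autocrine loop for growth and migration, while ERRFI1, itself induced by the pathway, binds the active kinase and blocks it. ERBB2 has no known soluble ligand, and ERBB3, a receptor for neuregulins, has a weak kinase and depends on its partners.

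Levels of the family differed widely within these cells, and no member differed between TCN1_OE and NC at an adjusted p under 0.05. EGFR was the highest member, at 70.6 ± 0.66 FPKM (SD, n = 2) in NC and 73.3 ± 0.72 FPKM (n = 2) in TCN1_OE, where FPKM is a count divided by gene length and by library total. HBEGF and TGFA were the highest ligands, and BTC was the lowest member, at 0.675 ± 0.22 and 0.681 ± 0.097 FPKM. The median log2 fold change of the 10 members, TCN1_OE over NC, was 0.02, against 0.002 over all genes tested, with 5 positive and 5 negative values.

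AREG, EREG, EPGN and BTC lie beside each other on chromosome 4, over 486 kb of GRCh38, and were the 4 lowest of the 10 members. In order along the chromosome, EPGN (74308473 to 74315307) is 49.8 kb from EREG (74365143 to 74388751), which is 56.4 kb from AREG (74445134 to 74455009), and BTC (74744759 to 74794686) lies on the opposite strand. The other members are each alone on their chromosome: EGFR on chromosome 7 (55019021 to 55211628), ERBB2 on 17 (39687914 to 39730426), ERBB3 on 12 (56076799 to 56103505), HBEGF on 5 (140332843 to 140346631), TGFA on 2 (70447280 to 70554193) and ERRFI1 on 1 (8004404 to 8026308), per GENCODE 29. The 250 bases before the RefSeq start (GRCh38.p14) are shown for EGFR, the highest member (chr7:55018767-55019016, plus strand), and for the ligands AREG (chr4:74444886-74445135, plus strand), EREG (chr4:74364895-74365144, plus strand) and EPGN (chr4:74308220-74308469, plus strand). They are shown 5′ to 3′, to set the start region of the highest member beside those of 3 neighbouring low ones. The start region of BTC, the lowest member and in the same stretch of chromosome 4, is not shown. It held none of the motifs searched for here. Capitals mark TATAAA, the core of a TATA box, and TGACGTCA, the cAMP response element.
EGFR: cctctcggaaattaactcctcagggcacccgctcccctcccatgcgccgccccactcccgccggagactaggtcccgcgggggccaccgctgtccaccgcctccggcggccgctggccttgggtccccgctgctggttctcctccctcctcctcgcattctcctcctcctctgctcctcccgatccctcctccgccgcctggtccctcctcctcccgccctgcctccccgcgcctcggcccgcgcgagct
AREG: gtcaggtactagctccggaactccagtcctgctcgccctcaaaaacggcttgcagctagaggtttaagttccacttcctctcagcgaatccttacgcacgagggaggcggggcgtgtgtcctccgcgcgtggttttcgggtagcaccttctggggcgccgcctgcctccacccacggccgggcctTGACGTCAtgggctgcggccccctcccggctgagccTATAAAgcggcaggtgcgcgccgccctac
EREG: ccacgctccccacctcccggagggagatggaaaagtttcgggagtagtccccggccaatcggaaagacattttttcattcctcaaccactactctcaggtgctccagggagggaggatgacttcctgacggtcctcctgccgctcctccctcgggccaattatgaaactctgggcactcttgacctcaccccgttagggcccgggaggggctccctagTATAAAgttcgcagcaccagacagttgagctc
EPGN: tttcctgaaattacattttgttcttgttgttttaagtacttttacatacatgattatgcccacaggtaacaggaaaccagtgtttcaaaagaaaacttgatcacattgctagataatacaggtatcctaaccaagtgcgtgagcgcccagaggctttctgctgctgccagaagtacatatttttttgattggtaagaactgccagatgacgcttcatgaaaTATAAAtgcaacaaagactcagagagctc
TATAAA was found on either strand in 3 of the 9 members with a listed promoter, AREG, EREG and EPGN, beginning 29, 32 and 29 bases before the start, and in 10.7% of 35116 promoters of the same length. TGACGTCA was found in AREG only, 65 bases before the start, against 1.65% of all promoters. The AP-1 motif TGANTCA, which does not overlap TGACGTCA, was found in ERBB2 only, against 6.57%. The GC box GGGCGG was found in EGFR, AREG, HBEGF, TGFA and ERRFI1, against 42.6%. GC content of these 250 bases was 76.4% in HBEGF, 75.6% in TGFA, 75.2% in ERRFI1, 73.6% in EGFR, 65.6% in ERBB2, 65.2% in AREG, 62.0% in BTC, 58.0% in EREG and 38.0% in EPGN, with a median of 58.0% over all promoters. These matches describe letters in a window and were not tested for any part in the levels. RefSeq and GENCODE 29 place some starts differently. By GENCODE 29 the window of TGFA (70553827 to 70554076) lies inside the gene, and those of ERBB2 and BTC lie mostly inside theirs.

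Library totals ranged from 11593377 counts in NC replicate 2 to 19973550 in NC replicate 1, with both TCN1_OE libraries in between. TCN1 itself had 50 and 17 counts in NC and 1700 and 1253 in TCN1_OE, in the direction of the labels. The keratinocyte markers KRT5 and TP63 stood at 2040 to 2430 FPKM and 63.5 to 66.4 FPKM. Of 19 markers of fibroblasts, melanocytes, endothelial, immune and Merkel cells, some were not among the listed genes. Listed were 4 of 6 fibroblast, 3 of 4 melanocyte, 2 of 3 endothelial, 4 of 4 immune and 0 of 2 Merkel markers. Of the listed ones, 6 had enough counts to be tested and 0 of the 6 differed between groups (edgeR, 0 at an unadjusted p under 0.05). Mitochondrially encoded genes took 5.33% and 5.13% of counts in NC and 6.04% and 5.65% in TCN1_OE, and the part of this difference in the values below was not tested.

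With edgeR's quasi-likelihood test, 0 of the 10 members passed an adjusted p under 0.05, beside 0.496% of all genes tested. DESeq2 called 0 members and gave no adjusted p for BTC. It called 1.48% of the 15113 genes, counting also any without an adjusted p. With limma on log2(FPKM + 0.5), 0 of the 9 members tested and 0.00872% of genes were called. At an unadjusted p under 0.05 edgeR gave 2 members, TGFA (lower) and ERBB3 (higher), or 2 of 10 beside 12.8% of all genes. The FPKM ranges of the groups did not overlap for 4 members: EGFR and ERBB3 lay higher, and TGFA and ERRFI1 lower, in both TCN1_OE libraries. Among all genes tested 42.7% did not overlap, 21.7% higher and 21.0% lower, so 4 of 10 is close to the background. For a single gene, permuting 2 libraries against 2 gives an exact two-sided p of at least 0.333.

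**Figure D1:**
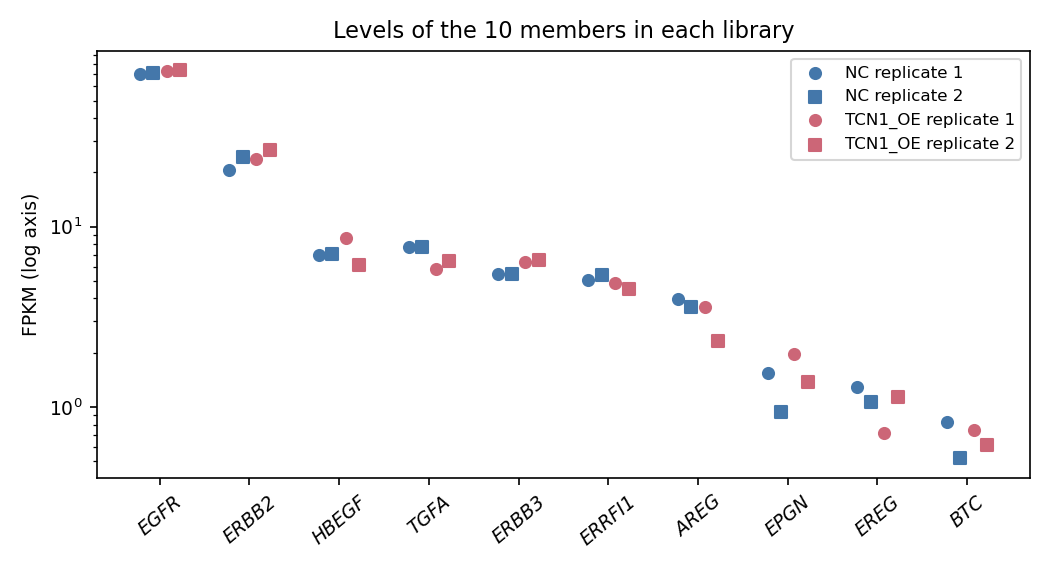
FPKM of each member (log axis) in the 4 libraries, ordered by mean level, with NC in blue and TCN1_OE in red, circles for replicate 1 and squares for replicate 2. EGFR stands at 70.1 to 73.8 FPKM in every library, ERBB2 at 20.6 to 26.6, and EPGN, EREG and BTC lie below 2 FPKM.

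EGFR and ERBB3 had the smallest differences between replicates of all members, at most 0.02 and 0.04 on the log2 FPKM scale, while that of ERBB2 reached 0.25. EGFR, the receptor of all 6 ligands listed here, stood at 70.1 and 71.1 FPKM in NC and at 72.8 and 73.8 FPKM in TCN1_OE, from 13136 to 22332 counts per library. Both TCN1_OE libraries were above both NC libraries by a small margin, and the log2 fold change was 0.05 ± 0.08 (SE), with a 95% interval of -0.13 to 0.23 and an edgeR adjusted p of 0.849. In linear terms that interval runs from 0.916-fold to 1.17-fold. The antisense gene EGFR-AS1 covers 1.49% of the exonic bases of EGFR and had 29 to 69 counts, and the library kit does not mark strand, so reads in the shared bases cannot be told apart.

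ERBB2, the preferred partner of the other receptors, stood at 20.6 and 24.4 FPKM in NC and at 23.7 and 26.6 FPKM in TCN1_OE. The groups overlapped, and replicate 2 was the higher library in each. Between groups the log2 fold change was 0.16 ± 0.11 (interval -0.09 to 0.40, edgeR adjusted p 0.606). With 1 library left out it ran from 0.03 (without NC replicate 1) to 0.29 (without NC replicate 2), and was 0.05 without TCN1_OE replicate 2 and 0.25 without TCN1_OE replicate 1. Each such fit leaves 1 group with a single library, which is then assumed to vary like the 2 libraries of the other group. Of its exonic bases, 7.41% lie under MIEN1 or PGAP3 on the other strand.

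ERBB3, the neuregulin receptor, stood at 5.50 and 5.48 FPKM in NC and at 6.37 and 6.56 FPKM in TCN1_OE. The 2 libraries of each group lay close together and the groups did not overlap. Its log2 fold change was 0.23 ± 0.10 with an interval of 0.01 to 0.46, and it did not pass over all genes (edgeR unadjusted p 0.0443, adjusted p 0.371). ERBB4, the remaining receptor of the family, had 12, 4, 18 and 11 counts in NC replicates 1 and 2 and TCN1_OE replicates 1 and 2, at 0.0265 to 0.0834 FPKM. EGFR made up 69.0% to 72.9% of the summed FPKM of EGFR, ERBB2 and ERBB3 in the 4 libraries, and ERBB3 made up 5.43% to 6.19%.

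**Figure D2:**
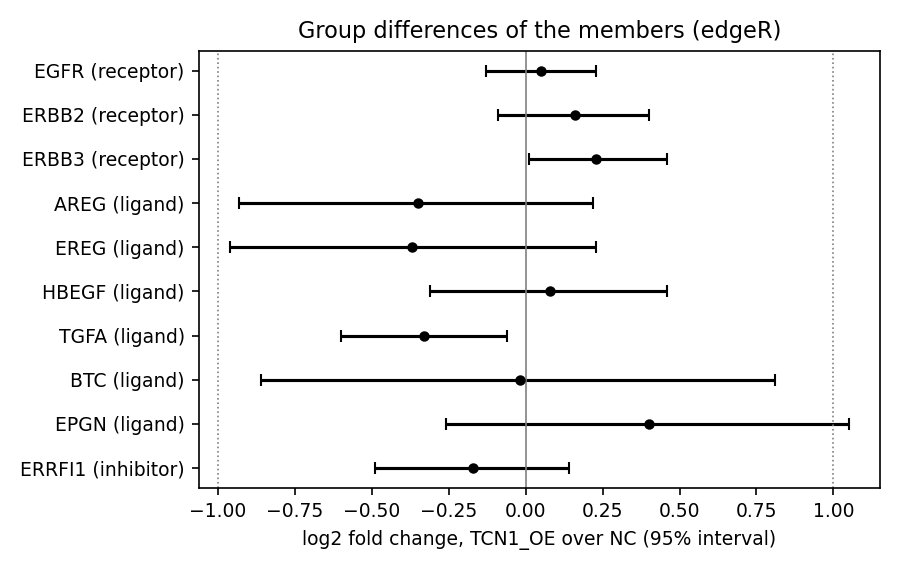
Log2 fold change of each member, TCN1_OE over NC (points), with its 95% interval from edgeR (bars); dotted lines mark a change of 1 on the log2 scale in either direction. The interval of EGFR, -0.13 to 0.23, is the narrowest and that of BTC, -0.86 to 0.81, the widest; those of ERBB3 and TGFA leave out 0 before adjustment.

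Among the ligands, TGFA had the smallest p. TGFA, a high-affinity EGFR ligand made by keratinocytes, stood at 7.73 and 7.67 FPKM in NC and at 5.85 and 6.42 FPKM in TCN1_OE. Both TCN1_OE libraries lay below both NC libraries. The log2 fold change was -0.33 ± 0.12, with an interval of -0.60 to -0.06, an edgeR unadjusted p of 0.0203 and an adjusted p of 0.278. Leaving out each library in turn gave -0.42 to -0.26, without a call.

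HBEGF, a heparin-binding ligand known from wound edges, stood at 6.98 and 7.07 FPKM in NC and at 8.69 and 6.16 FPKM in TCN1_OE. The TCN1_OE libraries lay on either side of NC, and the log2 fold change was 0.08 ± 0.17 (interval -0.31 to 0.46, edgeR adjusted p 0.896). Its sign rested on TCN1_OE replicate 1, since the value was -0.18 without that library, and it was 0.29 without TCN1_OE replicate 2.

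AREG, a low-affinity ligand and an autocrine growth factor of keratinocytes, stood at 3.96 and 3.57 FPKM in NC and at 3.60 and 2.31 FPKM in TCN1_OE, from 56 to 130 counts. TCN1_OE replicate 2 was the low library, and TCN1_OE replicate 1 lay within the NC range. The log2 fold change was -0.35 ± 0.26 (interval -0.93 to 0.22, edgeR adjusted p 0.618), and it was -0.09 without TCN1_OE replicate 2 and -0.70 without TCN1_OE replicate 1. EREG, which binds EGFR and ERBB4, stood at 1.30 and 1.07 FPKM in NC and at 0.718 and 1.14 FPKM in TCN1_OE. Here TCN1_OE replicate 1 was the low library, the reverse of AREG. EREG had a log2 fold change of -0.37 ± 0.27 (interval -0.96 to 0.23, edgeR adjusted p 0.619). That value was -0.06 without TCN1_OE replicate 1, -0.22 without NC replicate 1 and -0.75 without TCN1_OE replicate 2.

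EPGN, a low-affinity ligand of EGFR, stood at 1.55 and 0.941 FPKM in NC and at 1.97 and 1.38 FPKM in TCN1_OE. Replicate 1 was the higher library in each group and the groups overlapped. It had a log2 fold change of 0.40 ± 0.29 (interval -0.26 to 1.05, edgeR adjusted p 0.625). Leaving out NC replicate 1 or TCN1_OE replicate 2 raised it to 0.82 or 0.62, and leaving out NC replicate 2 or TCN1_OE replicate 1 lowered it to 0.12 or 0.13. BTC, which binds both EGFR and ERBB4, had 44 and 16 counts in NC and 33 and 24 in TCN1_OE, or 0.83 and 0.52 against 0.75 and 0.613 FPKM. The TCN1_OE libraries lay inside the NC range, and the exact Poisson interval of NC replicate 2 alone, 0.297 to 0.845 FPKM, which covers counting error only, held all 4 values. For BTC the log2 fold change was -0.02 ± 0.37 (interval -0.86 to 0.81, edgeR adjusted p 0.987), and the interval runs from 0.553-fold to 1.75-fold in linear terms. Its sign depended on the libraries, at 0.38 without NC replicate 1 and -0.28 without NC replicate 2.

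ERRFI1, the feedback inhibitor also called MIG6, stood at 5.09 and 5.43 FPKM in NC and at 4.86 and 4.49 FPKM in TCN1_OE. Both TCN1_OE libraries lay below both NC libraries, by less than 1 FPKM. The log2 fold change was -0.17 ± 0.14 (interval -0.49 to 0.14, edgeR adjusted p 0.672). A gene on the other strand covers 3.70% of its exonic bases.

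The summed FPKM of the 6 ligands was 22.3 and 20.8 in NC and 21.6 and 18.0 in TCN1_OE, so the groups overlapped. HBEGF and TGFA together gave 65.8% to 70.7% of that sum in the 4 libraries. AREG gave 17.7%, 17.1%, 16.7% and 12.8% in NC replicates 1 and 2 and TCN1_OE replicates 1 and 2. The low share in TCN1_OE replicate 2 is the same low AREG value described above. TGFA exceeded HBEGF in both NC libraries, with ratios of 1.11 and 1.08, and in TCN1_OE the ratios were 0.673 and 1.04. Summed receptors were 4.31 and 4.85 times the summed ligands in NC and 4.76 and 5.93 times in TCN1_OE. These ratios and the shares of summed FPKM, also those of the receptors above, rest on the deposited gene lengths. They were not computed on other lengths.

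**Figure D3:**
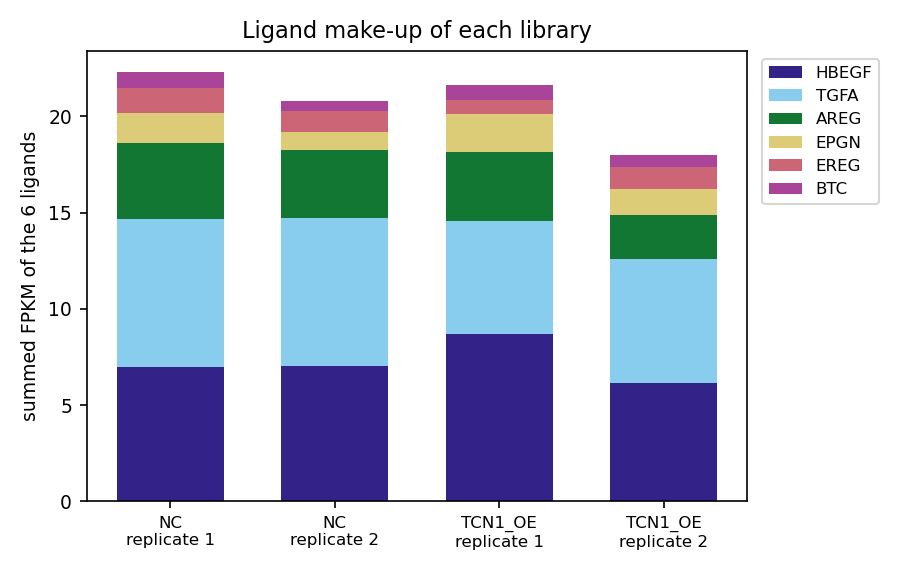
Summed FPKM of the 6 ligands in each library (bar height), split by ligand (colours). HBEGF and TGFA fill 65.8% to 70.7% of every bar, and TCN1_OE replicate 2 has the lowest bar, 18.0 FPKM.

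Ordered by mean FPKM over the 4 libraries, the members ran EGFR, ERBB2, HBEGF, TGFA, ERBB3, ERRFI1, AREG, EPGN, EREG and BTC. The ranges over the 4 libraries overlapped for HBEGF and TGFA, for TGFA and ERBB3, for EPGN and EREG, and for EREG and BTC. Within NC, TGFA came before HBEGF and ERBB3, and of these neighbours only EPGN and EREG overlapped: TGFA (7.67 to 7.73) lay above HBEGF (6.98 to 7.07), HBEGF above ERBB3 (5.48 to 5.50) and EREG (1.07 to 1.30) above BTC (0.52 to 0.83). Within TCN1_OE, the order was HBEGF, ERBB3 and TGFA, neighbours that overlapped, as did EREG and BTC, while EPGN lay above EREG. Over all 4 libraries the other neighbours were apart, ERBB3 and ERRFI1 by the least, with a lowest ERBB3 value of 5.48 and a highest ERRFI1 value of 5.43 FPKM. The order depends on the gene length behind each FPKM, which was longer in the deposited values than the longest coding transcript for 9 members, for example 15941 against 9821 bp in EGFR and 3299 against 1196 bp in EPGN. On the length of the longest coding transcript of GENCODE 29, an alternative chosen after seeing the data, ERBB3 moved above HBEGF and TGFA to the third place, and EPGN stood at 3.43 in NC and 4.62 in TCN1_OE, on that scale close to AREG at 4.99 and 3.91.

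For 6 of the 10 members, the larger of the 2 within-group differences exceeded the size of the fold change between groups. This sets the larger of 2 differences between single libraries against a difference of group means. The share over all genes was not computed, so the count cannot be read as particular to these members. The replicate 2 minus replicate 1 difference had the same sign in both groups for 5 members, beside 67.6% of all genes tested. EPGN and BTC were lower in replicate 2 of both groups, EPGN by 0.72 in NC and 0.52 in TCN1_OE on the log2 FPKM scale, and ERBB2 was higher in replicate 2 by 0.25 and 0.17. EREG had opposite signs, at -0.27 in NC and 0.67 in TCN1_OE. EGFR differed by 0.02 in both. The receptors had a median within-group difference of 0.04 against 0.66 for the ligands, taking the larger of the 2 groups for each gene, and the ligands had fewer counts.

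**Figure D4:**
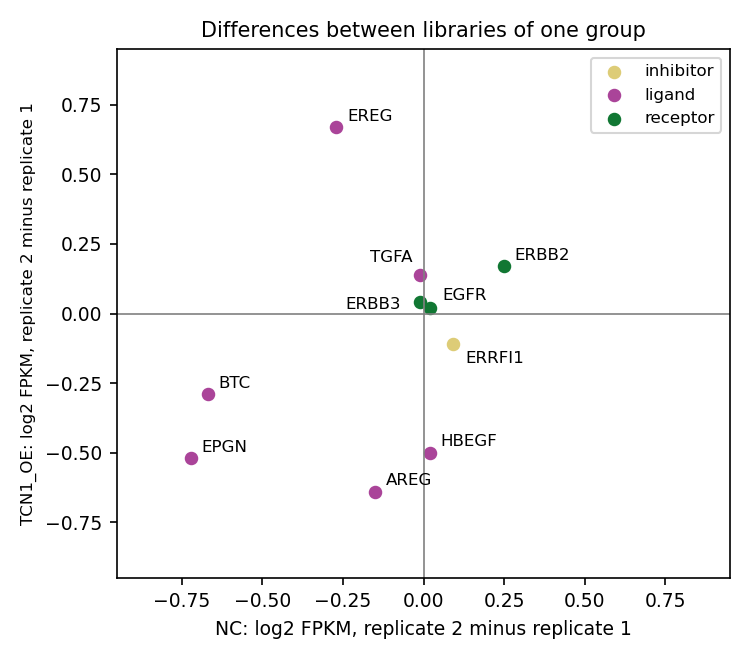
Difference of log2 FPKM between replicate 2 and replicate 1, in NC (x axis) and in TCN1_OE (y axis), for the 10 members coloured by role. EGFR and ERBB3 sit near 0 on both axes, while EPGN and BTC lie low on both and EREG lies at -0.27 and 0.67.

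Ligands of ERBB3 and ERBB4 are the neuregulins, and EGF itself is the founding ligand of EGFR. EGF had 6, 0, 4 and 5 counts and NRG3 had 0, 0, 0 and 2 counts in NC replicates 1 and 2 and TCN1_OE replicates 1 and 2, too few to test. NRG1 stood at 3.78 and 3.73 FPKM in NC and at 3.04 and 2.80 FPKM in TCN1_OE. Both TCN1_OE libraries were lower, by a log2 fold change of -0.37 ± 0.10 (edgeR adjusted p 0.161). NRG2 stood at 0.914 and 0.90 FPKM in NC and at 1.51 and 1.86 FPKM in TCN1_OE, a log2 fold change of 0.88 ± 0.23 (edgeR adjusted p 0.139). Of the fits without 1 library only that without TCN1_OE replicate 1 passed (1.04, adjusted p 0.0482), and the others gave 0.71 to 0.89 with adjusted p of 0.168 to 0.429. NRG4, another ERBB4 ligand, stood at 2.89 to 3.52 FPKM, and its log2 fold change was 0.21 ± 0.15.

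Around the members, 6 lists with 102 genes of the pathway gave 94 tested genes. Of these 0 passed edgeR over all genes, beside 0.496% of all genes tested. Of 12 tested genes that cut or traffic the ligand precursors, 5 were positive and 7 negative, with a median of -0.06. ADAM17, the main sheddase of TGFA and AREG, had a mean of 4.11 FPKM in NC and 4.28 in TCN1_OE, and ADAM10 had 23.3 and 22.2. The 3 with the smallest p were TSPAN14, a tetraspanin partner of ADAM10, at 0.26 ± 0.10, ADAM9 at -0.20 ± 0.10 and the iRhom-binding protein FRMD8 at 0.21 ± 0.15 on the log2 scale. ADAM17 and ADAM10 were named outside the rule for named genes.

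The 20 tested adaptors and RAS-ERK genes had a median of 0.05, with 14 positive and 6 negative. The docking protein GAB1 stood at 0.39 ± 0.13, the phosphatase PTPN11 (SHP2) at -0.25 ± 0.08 and the kinase BRAF at 0.26 ± 0.13, with edgeR adjusted p of 0.25, 0.256 and 0.459. The 13 tested genes of the PI3K-AKT and STAT branches had a median of -0.09, and PLCG1 and AKT2 stood at -0.23 ± 0.10 and -0.24 ± 0.12.

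Of 22 tested genes that down-regulate or recycle the receptors, 10 were positive and 12 negative, with a median of 0.00. The ubiquitin ligase CBL, which marks active EGFR for degradation, had means of 16.9 and 16.4 FPKM, named outside the rule. The receptor phosphatase PTPRK, known to act on EGFR, had 15 and 37 counts in NC and 117 and 252 in TCN1_OE. It had a log2 fold change of 2.74 ± 0.83 (edgeR adjusted p 0.317), and the replicates of each group lay far apart. With any single library left out it was 1.90 to 3.99, with the smallest value without NC replicate 1 (adjusted p 4.7e-05) and the largest without NC replicate 2 (3.2e-17). It was 3.24 without TCN1_OE replicate 1 (4.43e-05) and 1.92 without TCN1_OE replicate 2 (0.000312). These fits take the spread from the 2 libraries of the other group alone and call 221 to 305 genes against 75 with all libraries, so their p-values say nothing about how stable the difference is. The adaptors GRB7 and SH3KBP1 stood at 0.25 ± 0.14 and -0.38 ± 0.22.

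ERK feedback and target genes were the list with the lowest median. Of its 23 tested members 17 were negative and 6 positive, with a median of -0.20 against 0.002 over all genes. None passed over all genes. At an unadjusted p under 0.05, 10 were lower and 3 higher, beside 6.81% and 6.0% of all genes. Without overlap of the groups, 13 were lower and 4 higher, beside 21.0% and 21.7% of all genes. The list was chosen with earlier results of these data known, so these counts are a description and not independent evidence of its direction.

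FOSL1, an AP-1 subunit induced by ERK, stood at 10.0 and 11.1 FPKM in NC and at 4.54 and 6.07 FPKM in TCN1_OE. The groups were well apart, and the log2 fold change of -0.99 ± 0.19 had an edgeR adjusted p of 0.0568. It passed with DESeq2 (adjusted p 0.00376) and in edgeR with library totals only or without a low-count filter. It did not pass with limma, or in edgeR with RLE scaling factors or a mean of at least 1 FPKM. Without 1 library the value was -1.23 to -0.79, with adjusted p from 0.000186 (without TCN1_OE replicate 2) to 0.0485 (without TCN1_OE replicate 1), in fits with 1 library in a group and the same limit as for PTPRK. The ERK phosphatase DUSP4 stood at 4.14 and 4.64 FPKM in NC and at 2.59 and 2.80 FPKM in TCN1_OE, with a log2 fold change of -0.70 ± 0.14. Its edgeR adjusted p was 0.0568, and it passed with DESeq2 (0.0128). In the other settings named for FOSL1, DUSP4 passed and failed in the same ones. Without 1 library, under that limit, DUSP4 stood at -0.80 to -0.62, with adjusted p of 0.00703 without NC replicate 1, 0.0107 without TCN1_OE replicate 2, 0.0513 without TCN1_OE replicate 1 and 0.0769 without NC replicate 2. PHLDA1, a target of ERK, stood at -0.40 ± 0.11 with an adjusted p of 0.151. Not all of the list lay lower: the immediate early gene FOS, named outside the rule, stood at 0.52 on the log2 scale, and EGR1 at -0.02.

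**Figure D5:**
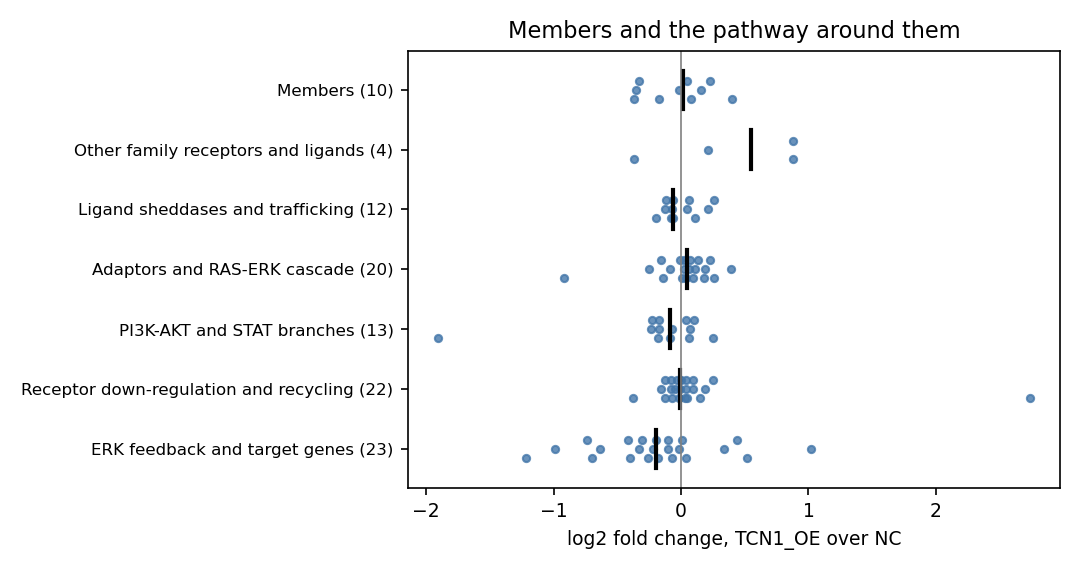
Log2 fold changes, TCN1_OE over NC, of the members and of the tested genes of 6 lists around them (points, number of genes in brackets), with the median of each as a black bar. The members' median is 0.02 and that of the ERK feedback and target genes is -0.20, while PTPRK at 2.74 is the highest point.

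Genes whose pattern over the 4 libraries was most like a member's were taken from 6688 genes whose mean FPKM was 5 or more, by Euclidean distance of centred log2(FPKM + 0.5). For EGFR they included ACP2 and COG4, at distances of 0.010 and 0.013, and 570 genes lay within 0.1. For AREG they were LRR1, GLMN and BCCIP, at 0.038, 0.095 and 0.099, and only these 3 lay within 0.1. The exact Poisson interval of AREG in TCN1_OE replicate 2, 56 counts, runs from 1.75 to 3.0 FPKM for counting error only. On the log2 scale that is wider than these distances, so counting error alone could change which genes come nearest. LRR1 stood at 8.75 and 8.23 FPKM in NC and at 8.25 and 5.46 FPKM in TCN1_OE. Its low library is that of AREG, which follows from picking it by pattern.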

How the data were processed

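PolyA RNA of HaCaT cells was sequenced in 4 libraries, 2 per group, grouped and numbered by their titles. The submitters' processing notes name HISAT2, HTSeq 0.13.5 and the build GRCh38. Which annotation release, and how strand and multi-mapped reads were handled, is not given in the sources used here. Deposited were whole-number counts per gene, per the file headers, and the authors' FPKM. Count over FPKM and library total gave a whole length in bp for 100% of values above 0 (tolerance 1e-04 bp), so FPKM was made by the authors from the counts.

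Counts were tested with edgeR 4.0.16 (R 4.3.3): filterByExpr with a minimum count of 10, TMM factors, robust quasi-likelihood fit with group as the only term, Benjamini-Hochberg adjustment over 15113 genes and a threshold of 0.05. The standard error is the log2 fold change over the square root of F, and 95% intervals use the fit's degrees of freedom. The procedure was run on simulated counts whose spread was estimated from these same libraries. That run cannot show how it performs if the replicates were not grown apart. Alternatives were DESeq2 1.42.0, limma 3.58.1 on log2(FPKM + 0.5), other scalings and filters, a replicate term and leaving out each library. The members, lists and tests were chosen with earlier results of these data known. Named were all members, other family genes, the 3 smallest p per list and any gene called, and the 3 genes nearest to EGFR and AREG. GENCODE 29 gave coordinates, and RefSeq promoters matched 9 of 10 members by symbol (ERBB3 did not match). Merkel cell markers were not among the listed genes, so 0 were tested. Some fibroblast, melanocyte and endothelial markers were not listed either. Of the genes this rule names, 2 are not reported here.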

Additional observations from a re-analysis of the deposited data

How the results depend on the processing

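At the depth of these libraries, 3 counts correspond to between 0.057 and 0.098 FPKM of BTC, a floor for counting error only. BTC, the lowest member, had 16 to 44 counts per library. The part of depth in the spread of the low members was not tested. Of 125 refits of the members' log2 fold changes, 118 kept direction and side of the threshold, 4 changed sign and 3 gained a call. BTC changed sign at 0.011 with the replicate block and ran from -0.28 to 0.38 over the fits that each leave out a library (0.38 without NC replicate 1, 0.10 without TCN1_OE replicate 2). HBEGF ran from -0.18 (without TCN1_OE replicate 1) to 0.29. None of these was called. BTC had no value with limma or the filter at 1 FPKM, being under that level, and no adjusted p with DESeq2. The replicate numbers are not known to pair the libraries. There are only 2 pairs, and the labels tie a number to no shared culture or day. Deviations of same-numbered libraries from their group means had a correlation of 0.149 over 15113 genes. The replicate difference had the same sign in both groups for 67.6% of all genes tested. With the number as a block, edgeR called 3 members: ERBB2 at 0.16 (adjusted p 0.00151), ERBB3 at 0.23 (0.00526) and TGFA at -0.34 (0.00422). That block called 2871 genes, 1216 higher and 1655 lower, or 19.0% of all tested, and 30 of the 94 tested list genes. With a block, 4 libraries leave few degrees of freedom to estimate the spread. All other settings run called 0 members.

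Over all genes, 75 were called in the main analysis (43 higher, 32 lower), 132 with library totals only (69 and 63), 475 without a low-count filter (200 and 275), 45 with a mean of at least 1 FPKM (14 lower), 223 with DESeq2 (110 and 113) and 1 with limma at pseudocounts of 0.5, 0.1 and 1 (1 higher, 0 lower). Leaving out a library, with the lone library of that group assumed to vary like the other group, gave 221 to 305 genes, 104 to 188 higher and 106 to 142 lower. The cause of these differences was not tested. With limma, RLE scaling factors or a mean of at least 1 FPKM, 0 of the list genes were called. Of the list genes 0 were called in the main analysis, 2 with library totals only and with DESeq2 (DUSP4, FOSL1), 5 without a low-count filter (these, PHLDA1, ETV4, ETV5) and 3 to 4 without a library, among them FOSL1 and PTPRK each time.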
